A study of Homo sapiens with 5 samples.

Results

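The genes described here are 10 of the 33538 in the deposited count matrix, chosen by name as parts of the TGF-beta and activin pathway. Earlier results of these data were known when these genes were chosen. They are the ligand genes TGFB1, TGFB2, INHBA and INHBB, the extracellular binding proteins FST and LTBP3, the receptor genes TGFBR1 and TGFBR2, and the intracellular inhibitors PMEPA1 and SMAD7. Each was followed in 5 samples of MDA-MB-468, an established human triple-negative breast cancer line. The samples were hashed with antibodies, pooled and sequenced as 1 library of 10x 3′ chemistry, which counts a tag at the end of each transcript as a unique molecular identifier (UMI). FOSL1, a FOS-family subunit of the AP-1 transcription factor, was raised in 3 arms. HA FOSL1 was set against HA control, and the 2 guide arms, VPR FOSL1 gRNA2 and VPR FOSL1 gRNA3, were each set against VPR control. The comparisons of gRNA2 and gRNA3 therefore share their control sample. The labels spell out neither HA nor VPR. They speak of 5-FU in the study's protocols, and whether any of the 5 samples was exposed to it is not stated. The protocol text speaks of 6 stained samples in a pool, whereas the study's design names 5. Each group is 1 sample, so the intervals printed with a level, ratio or share are 95% intervals that cover counting error only.

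TGF-beta and activin are secreted dimers of 1 superfamily that bring together a type II and a type I receptor kinase. The receptors phosphorylate SMAD2 and SMAD3, which usually act in the nucleus with SMAD4. TGF-beta is secreted in a latent form that LTBP proteins hold in the matrix, follistatin binds activin outside the cell, and PMEPA1 and SMAD7 are induced feedback inhibitors. In breast cancer the pathway is known both for growth restraint and for mesenchymal change, and MDA-MB-468 is known for a homozygous deletion at SMAD4.

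The 5 samples held 14642 kept cells, with 1826 cells in HA FOSL1, 3380 in HA control, 2542 in gRNA2, 4299 in gRNA3 and 2595 in VPR control. Their summed depth ran between 42058533 and 85556699 UMIs, and the median cell held 20768 UMIs in HA FOSL1 and between 15402 and 18121 UMIs in the other 4 samples. The assignment table lists no barcode more than once. FOSL1 itself stood at 63.5 CPM, its UMIs scaled to a common total of 1000000 per sample, in HA FOSL1 against 8.96 CPM in HA control. It stood at 101 CPM in gRNA2 and 94.3 CPM in gRNA3 against 8.91 CPM in VPR control. All 6 epithelial markers reached 5 CPM, EGFR was at 1829 CPM or more in every sample, and PGR had 0 UMIs. ERBB2 lay between 9.41 and 13.5 CPM. ESR1 was at 4.87 CPM in HA FOSL1 against 1.60 CPM in HA control, and at 2.91 CPM in gRNA2 and 2.63 CPM in gRNA3 against 1.83 CPM in VPR control. None of 6 fibroblast, 4 immune and 3 endothelial markers reached 5 CPM, and the sum of each of those lists stayed at 4.47 CPM or less. The immune sum was 4.47 CPM in HA FOSL1 against 0.807 CPM in HA control, and its part in the results was not tested. SMAD4 had 21 UMIs in HA FOSL1 against 47 in HA control, and 43 in gRNA2 and 66 in gRNA3 against 38 in VPR control, below 1 CPM in each.

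The start sites of 5 members are printed because FST and TGFBR2 hold the AP-1 letters TGANTCA, PMEPA1 holds the CRE letters TGACGTCA, and TGFB1 and INHBA, the ligand genes described at most length, hold neither. Each window is RefSeq sequence of build GRCh38.p14, 250 bases before to 50 bases after an annotated start, 5′ to 3′ on the gene's strand, with any match in capitals. The printed windows of INHBA, TGFBR2 and PMEPA1 stand at annotated starts downstream of the gene's outermost start. In the same build TGFB1 spans chr19:41330323-41353922, INHBA chr7:41685114-41705406, FST chr5:53480629-53487134 and TGFBR1 chr9:99103647-99154192.
FST chr5:53480379-53480678, plus strand: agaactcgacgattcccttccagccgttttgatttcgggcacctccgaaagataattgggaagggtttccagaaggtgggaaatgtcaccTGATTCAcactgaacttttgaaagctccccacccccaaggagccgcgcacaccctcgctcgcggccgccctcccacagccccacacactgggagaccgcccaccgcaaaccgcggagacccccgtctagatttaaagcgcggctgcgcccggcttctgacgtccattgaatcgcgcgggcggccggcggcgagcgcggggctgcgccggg
TGFBR2 chr3:30606351-30606650, plus strand: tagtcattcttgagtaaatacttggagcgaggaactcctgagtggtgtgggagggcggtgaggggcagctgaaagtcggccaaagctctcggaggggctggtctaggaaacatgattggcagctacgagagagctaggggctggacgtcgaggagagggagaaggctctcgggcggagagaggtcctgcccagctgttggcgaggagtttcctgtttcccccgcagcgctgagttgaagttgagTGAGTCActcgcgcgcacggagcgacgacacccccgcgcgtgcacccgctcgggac
PMEPA1 chr20:57709966-57710265, minus strand: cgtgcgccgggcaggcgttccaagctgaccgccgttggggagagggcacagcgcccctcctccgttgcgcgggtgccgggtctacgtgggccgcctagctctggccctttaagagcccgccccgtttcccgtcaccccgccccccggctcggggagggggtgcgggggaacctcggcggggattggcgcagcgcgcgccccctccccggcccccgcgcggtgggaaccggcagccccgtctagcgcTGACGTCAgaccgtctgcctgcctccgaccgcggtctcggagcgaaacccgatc
TGFB1 chr19:41353873-41354172, minus strand: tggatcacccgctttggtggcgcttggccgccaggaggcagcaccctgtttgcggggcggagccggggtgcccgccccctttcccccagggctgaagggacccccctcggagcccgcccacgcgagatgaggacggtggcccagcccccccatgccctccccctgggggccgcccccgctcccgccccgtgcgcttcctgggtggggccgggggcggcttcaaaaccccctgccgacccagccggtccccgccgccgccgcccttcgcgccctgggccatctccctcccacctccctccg
INHBA chr7:41703041-41703340, minus strand: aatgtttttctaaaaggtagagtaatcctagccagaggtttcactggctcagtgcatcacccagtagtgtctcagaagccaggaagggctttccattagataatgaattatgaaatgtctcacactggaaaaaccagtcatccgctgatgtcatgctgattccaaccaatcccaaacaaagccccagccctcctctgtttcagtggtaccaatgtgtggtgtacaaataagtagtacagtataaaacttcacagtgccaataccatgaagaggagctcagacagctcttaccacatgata
The AP-1 letters begin at position -160 in FST and at -6 in TGFBR2, and the CRE letters begin at -4 in PMEPA1, counted with the start base as 0. The CRE letters are their own reverse complement and TGANTCA is so apart from its open base, so a search of 1 strand reads both. Among all 35116 promoter windows of the table, 7.71% hold TGANTCA and 1.85% hold TGACGTCA. TGFBR2 holds the AP-1 letters in 1 of 2 windows and PMEPA1 holds the CRE letters in 1 of 4, while TGFB2, INHBB, LTBP3, TGFBR1 and SMAD7 hold neither in any window. A match is a string of letters, and no binding was measured here.

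TGFB1 was higher in every FOSL1 arm, INHBA and TGFBR1 were much higher in HA FOSL1 than in HA control and only modestly so with the guides, and TGFB2 was higher in HA FOSL1 alone. At a threshold of 1.5-fold on the log2(CPM + 1) scale, 5 of the 9 members with a mean of at least 5 CPM were higher in HA FOSL1 and 0 were lower. Of all 9890 genes compared there, 9.75% passed that fold in either direction, split as 6.21% upward and 3.54% downward. With gRNA2, 1 of 9 members was past the threshold, upward, against 2.01% of all genes (1.2% upward and 0.811% downward). With gRNA3, 2 of 9 were, both upward, against 2.47% of all genes (1.2% upward and 1.27% downward). SMAD7 was the member that missed the 5 CPM minimum. Over all 10 members log2 ratios had a median of 0.71 for HA FOSL1, 0.28 for gRNA2 and 0.32 for gRNA3. Over all genes compared, the medians of HA FOSL1 and gRNA3 were -0.02 and -0.01. Since the members were chosen with earlier results of these data known, these figures do not test whether the members stand out.

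**Figure D1:**
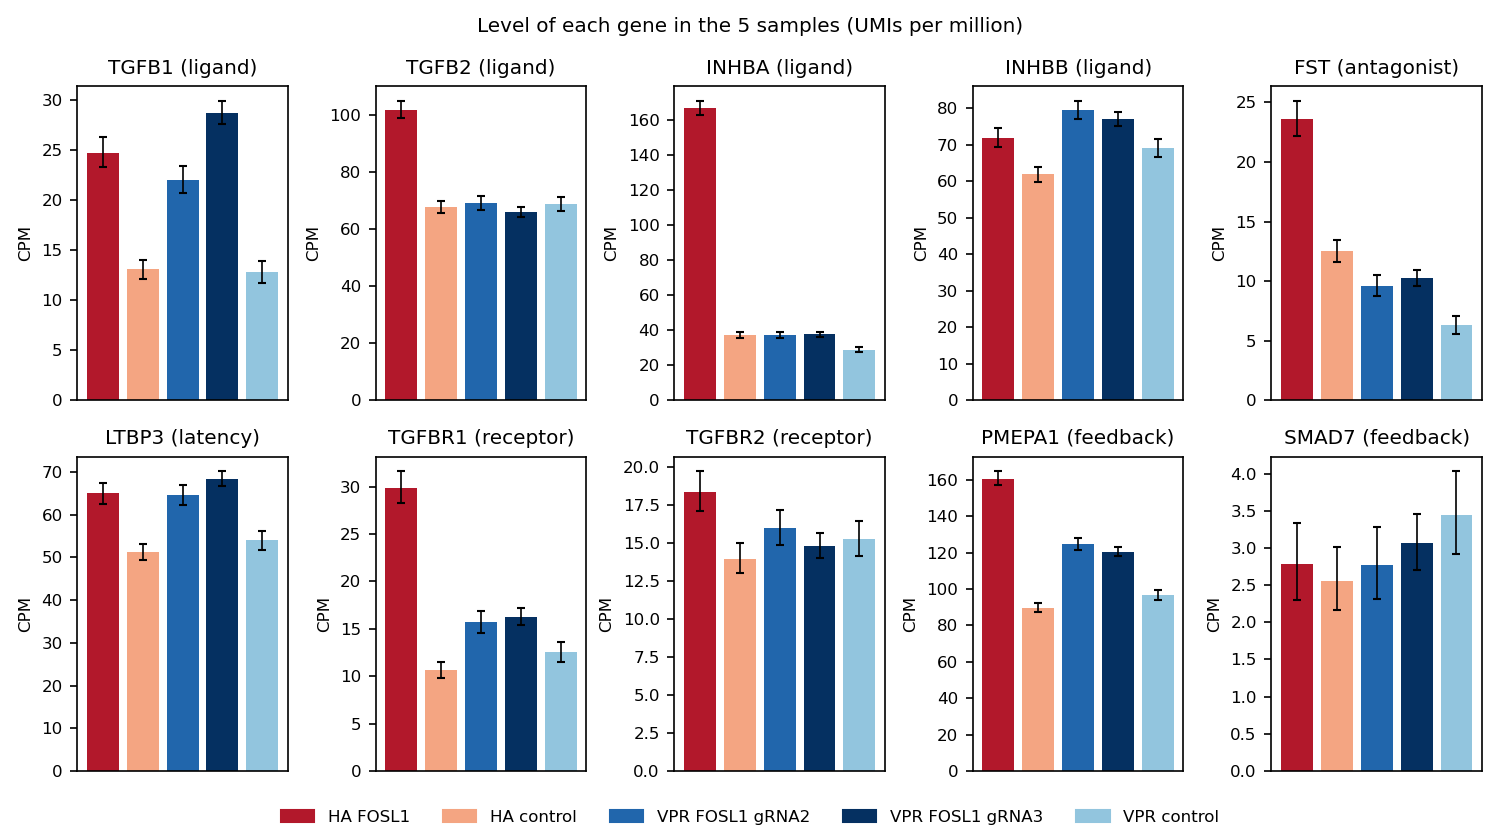
Level of each of the 10 genes in CPM (y axis of each panel, starting at 0) in HA FOSL1, HA control, gRNA2, gRNA3 and VPR control, with 95% counting intervals. The 3 FOSL1 arms of TGFB1 stand between 22.0 and 28.7 CPM, above 13.1 and 12.8 CPM in the controls, whereas INHBA stands at 167 CPM in HA FOSL1 and at 37.8 CPM or less elsewhere.

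A single edgeR quasi-likelihood model over the 5 samples had the system and FOSL1 as terms. The model tested 1 FOSL1 effect per gene, averaged over the 3 arms, and not whether the arms moved alike. It called 2 of 10 members, TGFB1 and FST, both higher, and 0 lower, while an unadjusted p under 0.05 was reached by 7 higher and 0 lower. Of all genes 26% reached that unadjusted p, 13.4% higher and 12.6% lower. The adjusted calls made up 1.61% of all 15439 genes tested, split as 0.9% higher and 0.706% lower. DESeq2 called 5 members, all higher: TGFB1, FST, LTBP3, PMEPA1 and TGFBR1. It called 7.48% of the 14931 genes it tested, 4.86% higher and 2.63% lower. A second edgeR model asked whether the HA arm and the guide arms differed in their FOSL1 effect. That interaction called 5 of 10 members, INHBA, TGFBR1, TGFB2, PMEPA1 and TGFBR2, each with the larger effect in the HA arm. Over all 16071 genes tested the interaction called 12.2%, 8.37% with the more positive effect in the HA arm and 3.81% with the more negative. The DESeq2 interaction called 4 members, all of these but TGFBR2, and 3.56% of the 12640 genes it tested, 2.81% more positive in the HA arm and 0.752% more negative. The only replication in the first model is between constructs and guides, which leaves 2 residual degrees of freedom. In the interaction model it is between gRNA2 and gRNA3 alone, which leaves 1. The standard errors and p-values of the interaction therefore hold no measured variation of the HA samples or of VPR control.

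Among the ligands, TGFB1 encodes the TGF-beta isoform most widely made by carcinoma cells. It stood at 24.7 CPM (23.2 to 26.3) in HA FOSL1 against 13.1 CPM (12.2 to 14.1) in HA control. It stood at 22.0 CPM (20.7 to 23.4) in gRNA2 and 28.7 CPM (27.6 to 29.9) in gRNA3, against 12.8 CPM (11.8 to 13.9) in VPR control. All 3 arms lay above both controls, whose intervals overlapped. The log2 ratio was 0.87 (0.74 to 1.00) for HA FOSL1, 0.74 (0.60 to 0.88) for gRNA2 and 1.11 (0.98 to 1.23) for gRNA3. TGFB1 rose in the model of all arms by 0.98 ± 0.13 on the log2 scale (SE, edgeR adjusted p = 0.046). The edgeR interaction was -0.07 with an adjusted p of 0.883, and no difference between the systems was detected. Leaving out gRNA2 or gRNA3 from the edgeR model brought the adjusted p to 0.102 or 0.140.

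INHBA encodes the subunit of activin A. Its level was 167 CPM (163 to 171) in HA FOSL1 against 37.4 CPM (35.8 to 39.0) in HA control. Its level was 37.5 CPM (35.8 to 39.3) in gRNA2 and 37.8 CPM (36.5 to 39.1) in gRNA3 against 29.1 CPM (27.5 to 30.7) in VPR control. HA FOSL1 stood far above the other 4 samples, and both guide arms stood above their own control yet level with HA control. The ratio in the HA arm was 2.13 on the log2 scale (2.06 to 2.20), or 4.38-fold. It was 0.36 (0.26 to 0.46) with gRNA2 and 0.37 (0.28 to 0.46) with gRNA3. The effect was larger in the HA arm by 1.81 ± 0.08 on the log2 scale (SE, edgeR interaction, adjusted p = 3.05e-07). FOSL1 itself was higher in CPM with the guides, and whether tags at the transcript end count FOSL1 alike in both systems was not tested. The model of all arms gave INHBA 1.15 ± 0.40 (SE, edgeR adjusted p = 0.161), short of the threshold. VPR control lay below HA control by a log2 ratio of -0.35 (-0.45 to -0.26), a difference between controls that is nearly as large as either guide's ratio. INHBA-AS1, the antisense RNA at the same locus, was at 0.690 CPM or less in every sample.

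TGFB2, a second TGF-beta isoform, had 102 CPM (98.8 to 105) in HA FOSL1 against 67.8 CPM (65.7 to 70.0) in HA control. It had 69.1 CPM in gRNA2 and 66.0 CPM in gRNA3 against 68.6 CPM in VPR control. Only HA FOSL1 stood apart, with a log2 ratio of 0.58 (0.52 to 0.64), just short of 1.5-fold. The guides gave 0.01 (-0.06 to 0.08) and -0.06 (-0.12 to 0.01), and the effect was larger in the HA arm by 0.63 ± 0.08 (SE, edgeR interaction, adjusted p = 0.000283). INHBB, the subunit of activin B, had 72.0 CPM (69.4 to 74.6) in HA FOSL1 against 61.9 CPM (59.9 to 64.0) in HA control. It had 79.4 CPM (76.9 to 82.0) in gRNA2 and 77.1 CPM (75.2 to 79.0) in gRNA3 against 69.0 CPM (66.6 to 71.5) in VPR control. INHBB was higher by 0.16 to 0.21 log2 in each arm and VPR control was above HA control by 0.15, so the HA FOSL1 level lay near that of VPR control. Its model value was 0.22 ± 0.05 (SE, edgeR adjusted p = 0.082).

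**Figure D2:**
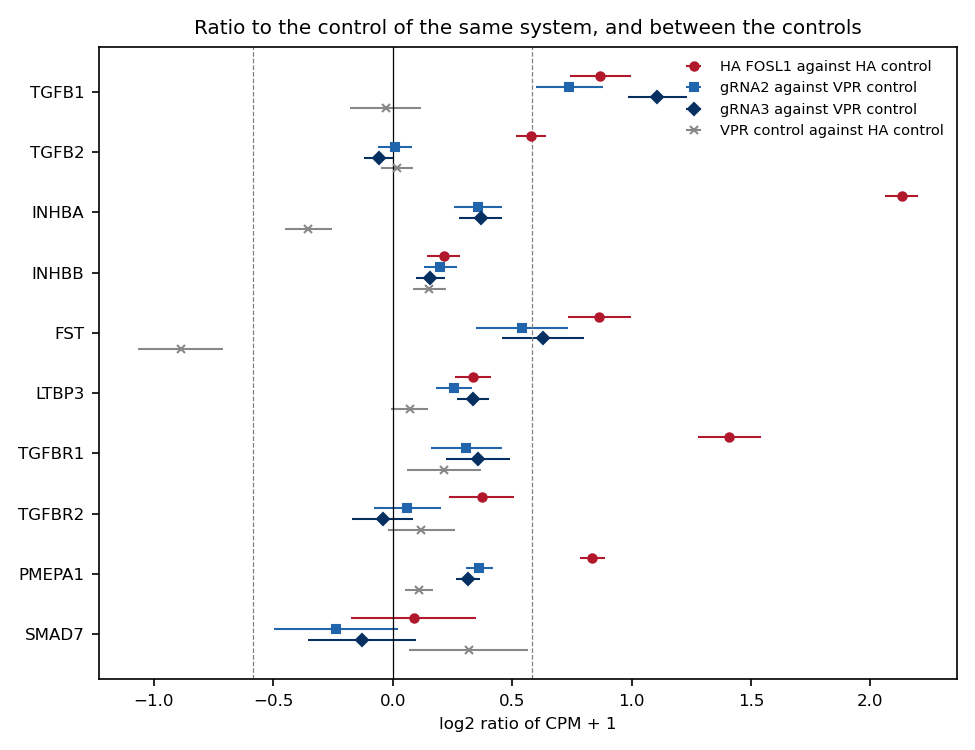
Log2 ratio of CPM + 1 (x axis) for each of the 10 genes in HA FOSL1 against HA control, gRNA2 and gRNA3 against VPR control, and VPR control against HA control, with 95% counting intervals and dashed lines at 1.5-fold. The 3 arms lie together for TGFB1, INHBB and LTBP3, whereas INHBA and TGFBR1 lie at 2.13 and 1.41 in the HA arm and at 0.37 or less with the guides.

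FST encodes follistatin, which binds activin and keeps it from its receptor. Its level was 23.6 CPM (22.1 to 25.1) in HA FOSL1 against 12.5 CPM (11.6 to 13.5) in HA control. Its level was 9.61 CPM (8.76 to 10.5) in gRNA2 and 10.3 CPM (9.61 to 11) in gRNA3 against 6.30 CPM (5.58 to 7.08) in VPR control. Each arm stood above its own control, but both guide arms stood below HA control. The log2 ratios were 0.86 (0.73 to 1.00), 0.54 (0.35 to 0.73) and 0.63 (0.46 to 0.80) for HA FOSL1, gRNA2 and gRNA3. FST rose in the model of all arms by 0.80 ± 0.10 (SE, edgeR adjusted p = 0.040), and the edgeR interaction gave 0.27 with an adjusted p of 0.229. VPR control lay below HA control by a log2 ratio of -0.89 (-1.07 to -0.71), and FST was the 1 member of 9 past 1.5-fold between the controls, lying lower, where 0.313% of 9901 genes passed that fold and 0.202% did so downward. Set against HA control, the guides gave -0.35 and -0.26, so the direction with the guides rests on the choice of control. Without gRNA2 or gRNA3 the edgeR adjusted p was 0.124 or 0.172.

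LTBP3 encodes a latent TGF-beta binding protein of the matrix, and the span of its gene lies 333.7 kb from that of FOSL1 on chromosome 11. It had 65.0 CPM (62.5 to 67.4) in HA FOSL1 against 51.3 CPM (49.4 to 53.2) in HA control. It had 64.6 CPM (62.3 to 66.9) in gRNA2 and 68.3 CPM (66.6 to 70.1) in gRNA3 against 53.9 CPM (51.8 to 56.1) in VPR control. The 3 arms lay above both controls by like amounts, with log2 ratios between 0.26 and 0.34. The model value was 0.34 ± 0.06 (SE, edgeR adjusted p = 0.058), short of the threshold, and the edgeR interaction gave 0.06 with an adjusted p of 0.727.

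TGFBR1, the type I receptor kinase for TGF-beta, had 29.9 CPM (28.3 to 31.6) in HA FOSL1 against 10.6 CPM (9.81 to 11.5) in HA control. It had 15.7 CPM (14.6 to 16.9) in gRNA2 and 16.3 CPM (15.4 to 17.2) in gRNA3 against 12.5 CPM (11.5 to 13.6) in VPR control. All 3 arms lay above both controls, with HA FOSL1 well above the guides. The log2 ratios were 1.41 (1.28 to 1.54), 0.31 (0.16 to 0.46) and 0.36 (0.22 to 0.49) for HA FOSL1, gRNA2 and gRNA3. The effect was larger in the HA arm by 1.15 ± 0.11 (SE, edgeR interaction, adjusted p = 6.44e-05). TGFBR2, the type II receptor that binds TGF-beta first, had 18.4 CPM (17.1 to 19.7) in HA FOSL1 against 14.0 CPM (13.0 to 15) in HA control. It had 16 CPM (14.9 to 17.2) in gRNA2 and 14.8 CPM (14.0 to 15.6) in gRNA3 against 15.3 CPM (14.2 to 16.5) in VPR control. The guide intervals overlapped that of their control. The TGFBR2 log2 ratio in the HA arm was 0.37 (0.24 to 0.51), larger than with the guides by 0.41 ± 0.11 (SE, edgeR interaction, adjusted p = 0.037). DESeq2 gave that interaction an adjusted p of 0.999.

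PMEPA1 encodes a membrane protein that binds SMAD2 and SMAD3 and is itself a TGF-beta target. It had 161 CPM (157 to 165) in HA FOSL1 against 89.6 CPM (87.2 to 92.1) in HA control. It had 125 CPM (121 to 128) in gRNA2 and 120.5 CPM (118 to 123) in gRNA3 against 96.7 CPM (93.8 to 99.6) in VPR control. Each arm lay above both controls, and HA FOSL1 lay above both guide arms. The log2 ratios were 0.84 (0.78 to 0.89), 0.36 (0.31 to 0.42) and 0.31 (0.26 to 0.37) for HA FOSL1, gRNA2 and gRNA3. The effect was larger in the HA arm by 0.52 ± 0.07 (SE, edgeR interaction, adjusted p = 0.000547), and the model of all arms gave 0.58 ± 0.12 (SE, edgeR adjusted p = 0.079). SMAD7, the inhibitory SMAD that blocks the type I receptor, had 2.78 CPM (2.30 to 3.33) in HA FOSL1 against 2.56 CPM (2.16 to 3.01) in HA control. It had 2.77 CPM in gRNA2 and 3.06 CPM in gRNA3 against 3.44 CPM (2.92 to 4.03) in VPR control. The log2 intervals of SMAD7 in the 3 arms all held 0, running as widely as -0.50 to 0.02 with gRNA2, so a difference from the arm's own control was not detectable at this depth. Between the controls it was 0.32 (0.07 to 0.57) higher in VPR control.

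The share of cells with at least 1 UMI was compared after each cell was thinned to 5000 UMIs, which left 1818 cells in HA FOSL1, 3367 in HA control, 2537 in gRNA2, 4289 in gRNA3 and 2587 in VPR control. INHBA was seen in 34.9% of thinned cells (32.7 to 37.1) in HA FOSL1 against 9.09% (8.14 to 10.1) in HA control. It was seen in 10.9% (9.73 to 12.2) in gRNA2 and 12.1% (11.1 to 13.1) in gRNA3 against 7.69% (6.69 to 8.79) in VPR control. Unthinned, the INHBA shares were 57.6% in HA FOSL1 against 19.7% in HA control, and 24.7% and 26.1% in gRNA2 and gRNA3 against 15.3% in VPR control. More cells of HA FOSL1 held INHBA, and those that did held more of it, with 2.19 UMIs per positive cell in HA FOSL1 against 1.73 in HA control. Positive cells held 1.53 UMIs in gRNA2 and 1.56 in gRNA3 against 1.74 in VPR control, so the guide arms had more positive cells without more UMIs in each. Cells with 4 or more INHBA UMIs made up 5.17% of HA FOSL1 against 0.891% of HA control, and 0.670% of gRNA2 and 0.723% of gRNA3 against 0.773% of VPR control.

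**Figure D3:**
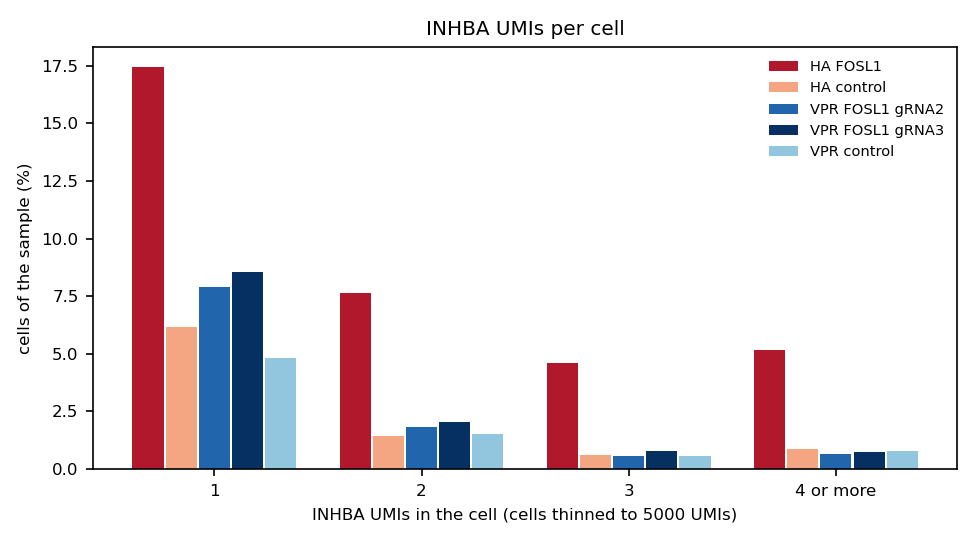
Percent of the cells of each sample (y axis, starting at 0) that held 1, 2, 3 or 4 and more INHBA UMIs (x axis) after thinning to 5000 UMIs. HA FOSL1 has the tallest bar in each class. At 4 or more UMIs it has 5.17% of its cells, where the other 4 samples have 0.891% or less.

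TGFB1 was seen in 10.9% of thinned cells in HA FOSL1 against 6.27% in HA control, and in 9.66% in gRNA2 and 11.9% in gRNA3 against 6.11% in VPR control. Its unthinned shares were 36.1% in HA FOSL1 against 18.1% in HA control, and 29.8% in gRNA2 and 38.4% in gRNA3 against 18% in VPR control. TGFBR1 was seen in 12.3% of thinned cells in HA FOSL1 against 4.72% in HA control, and in 7.37% in gRNA2 and 7.48% in gRNA3 against 6.53% in VPR control. The TGFBR1 shares thus kept the order of the levels. PMEPA1 was seen in 51.3% of thinned cells in HA FOSL1 against 34.7% in HA control, and in 44.5% in gRNA2 and 42.2% in gRNA3 against 36.7% in VPR control. FST was seen in 5.94% of thinned cells in HA FOSL1 against 4.01% in HA control, and in 3.51% in gRNA2 and 4.76% in gRNA3 against 2.28% in VPR control. With cells thinned to 10000 UMIs, the FST intervals of the HA arm overlapped, at 8.62% (7.36 to 10.0) against 7.92% (6.99 to 8.92) in HA control. At that depth the FST shares were 6.79% in gRNA2 and 7.96% in gRNA3 against 4.55% in VPR control. FST was unevenly held, since the 10 cells with the most FST UMIs supplied 26.8% of them in unthinned HA FOSL1 against 17.1% in HA control. Without those cells, chosen after their values were seen, the FST level was 17.4 CPM in HA FOSL1 against 10.4 CPM in HA control, a log2 ratio of 0.69. Over the 10 members and 3 arms, 16 of 30 thinned shares had an interval above that of their control. The same rule was not run over all genes, so how unusual that count is was not tested. No cell type without these genes was in the pool, so the free RNA level came from empty droplets. If 5% of a cell's UMIs were free RNA, it would put a UMI of INHBA in 1.37% of thinned cells, of TGFB1 in 0.390% and of FST in 0.248%, below every share given here for these genes.

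**Figure D4:**
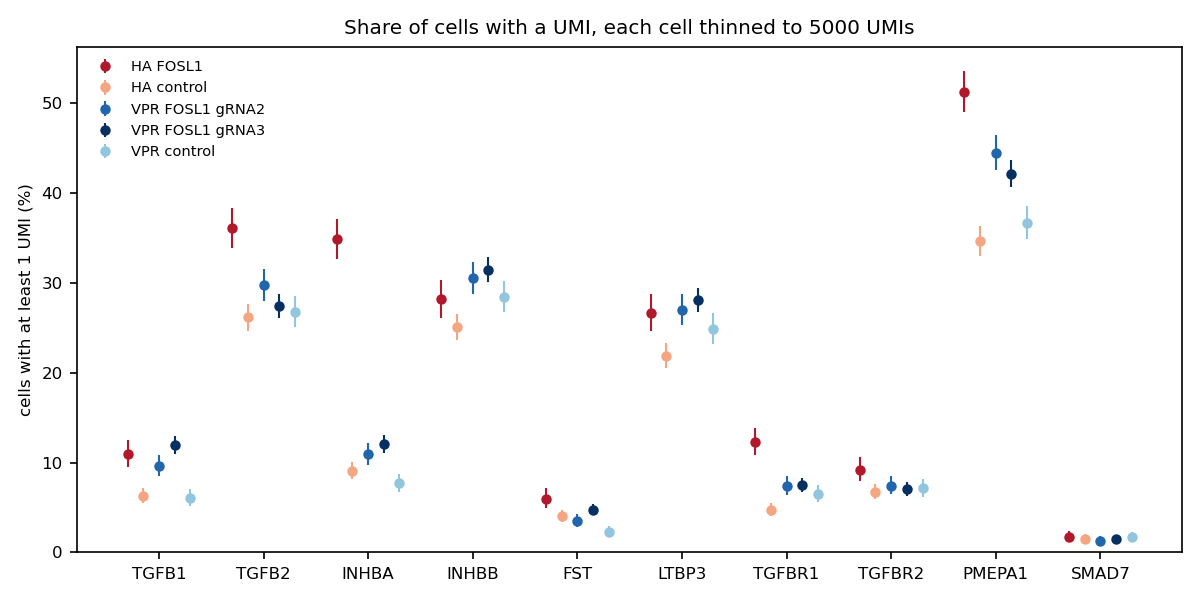
Percent of cells with at least 1 UMI (y axis, starting at 0) for each of the 10 genes in the 5 samples, with every cell thinned to 5000 UMIs and 95% exact binomial intervals. INHBA reaches 34.9% in HA FOSL1 and 12.1% or less elsewhere, while TGFB1 lies between 9.66% and 11.9% in the FOSL1 arms and at 6.27% and 6.11% in the controls.

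Within samples, INHBA was seen more often in cells with a FOSL1 UMI than in cells without one, at equal depth. A FOSL1 UMI was seen in 19.5% of thinned cells in HA FOSL1 against 3.74% in HA control, and in 32.7% in gRNA2 and 29.7% in gRNA3 against 4.17% in VPR control. Free RNA at 5% would put a FOSL1 UMI in 1.57% of cells, so part of the FOSL1-positive cells of the controls cannot be told apart from background. In HA FOSL1 the INHBA shares were 49.4% of 354 cells with a FOSL1 UMI (44.1 to 54.8) and 31.4% of 1464 cells without (29.0 to 33.8). In HA control they were 25.4% of 126 cells (18.1 to 33.9) and 8.45% of 3241 cells. In gRNA2 they were 15.2% of 830 cells and 8.85% of 1707, in gRNA3 14.8% of 1274 and 10.9% of 3015, and in VPR control 22.2% of 108 and 7.06% of 2479. The direction was the same in all 5 samples. For TGFB1 the shares were 12.4% and 10.6% in HA FOSL1, 11.4% and 8.79% in gRNA2, and 14.4% and 10.9% in gRNA3. They were 9.52% and 6.14% in HA control and 7.41% and 6.05% in VPR control. In gRNA3 the TGFB1 gap was close to that of INHBA. Other members also differed, such as FST in HA FOSL1 (10.2% and 4.92%) and TGFBR1 in gRNA3 (10.2% and 6.33%). Among those that went the other way were TGFB2 in HA FOSL1 (33.1% and 36.8%) and TGFBR1 in HA control (2.38% and 4.81%). Cells with an INHBA UMI held FST more often too. FST was seen in 9.15% of 634 INHBA-positive cells and 4.22% of 1184 others in HA FOSL1, and in 9.80% and 3.43% in HA control. The shares were 9.03% and 2.83% in gRNA2, 9.85% and 4.06% in gRNA3, and 9.05% and 1.72% in VPR control. Among INHBA-positive cells FST thus lay between 9.03% and 9.85% in all 5 samples, while among the other cells it lay between 1.72% and 4.22%. The INHBA-positive shares had wide intervals, such as 5.93 to 13.0 in gRNA2 and 5.45 to 13.9 in VPR control. Whether that share is alike between samples was therefore not resolved. TGFBR1 was seen more often in INHBA-positive cells in HA FOSL1, at 18.5% and 8.95%, in gRNA2, at 10.8% and 6.95%, and in gRNA3, at 9.65% and 7.19%. It was not in HA control, at 3.92% and 4.80%, or in VPR control, at 6.03% and 6.57%. Only in HA FOSL1 did the TGFBR1 intervals lie apart (15.5 to 21.7 and 7.39 to 10.7). They overlapped in gRNA2 (7.43 to 15.1 and 5.93 to 8.07), in gRNA3 and in both controls. These splits describe cells of single samples, were chosen after values were seen and have no test across samples.

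The rest of the pathway was read from 7 further lists with 56 genes. Of the 46 tested in the edgeR model of all arms, 0 were called higher and 1, LTBP1, fell, while an unadjusted p under 0.05 was reached by 11 higher and 6 lower. Over all genes these rules gave 1.61% and 26%. DESeq2 called 3 of them higher and 1 lower, against 4.86% higher and 2.63% lower of all 14931 genes it tested. The edgeR interaction called 14 of 46, 13 more positive in the HA arm and 1 more negative, against 12.2% of all genes. The DESeq2 interaction called 5 of 41, with THBS1, SMURF2, TAGLN and IGFBP3 more positive and TIMP3 more negative, against 3.56% of all genes. LTBP1, a latent TGF-beta binding protein like LTBP3, had 7.06 CPM in HA FOSL1 against 14.3 CPM in HA control, and 7.72 CPM in gRNA2 and 7.08 CPM in gRNA3 against 13.0 CPM in VPR control. It lay lower in every arm, by log2 ratios of -0.93, -0.68 and -0.79, with a model value of -0.87 ± 0.09 (SE, edgeR adjusted p = 0.034). LTBP1 and LTBP3 thus lay on opposite sides of their controls in all 3 arms. Of the 9 tested genes of latency and activation, the edgeR interaction called THBS1, a matrix activator of latent TGF-beta, with a difference of 0.43 (adjusted p = 0.00408), and ITGAV, the integrin alpha-v subunit, with 0.36 (adjusted p = 0.014, but 0.520 with DESeq2). Of the other 4 ligands and 7 receptors and coreceptors tested, and of 2 further extracellular antagonists, 0 were called by either edgeR model or by DESeq2. Of these, TGFBR3 and ENG had the highest ratios among the receptors and coreceptors above 5 CPM, at 0.46 and 0.40 log2 for HA FOSL1. At an unadjusted p under 0.05 the edgeR model of all arms had 2 of the ligands and 1 receptor or coreceptor, and the edgeR interaction had 2 of the receptors or coreceptors and 1 of the antagonists. Over all genes that p was reached by 25.9% in the interaction, 15.4% more positive in the HA arm and 10.5% more negative.

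Of the 3 SMADs of the pathway, SMAD3 had 28.0 CPM in HA FOSL1 against 12.4 CPM in HA control, and 21.6 CPM in gRNA2 and 19.5 CPM in gRNA3 against 14.9 CPM in VPR control. All 3 arms lay above both controls, and the effect was larger in the HA arm by 0.75 (edgeR interaction, adjusted p = 0.00135), a call that DESeq2 did not make (adjusted p = 0.151). SMAD2, its close relative, was called in the edgeR interaction with a difference of 0.28 (adjusted p = 0.045) but not by DESeq2, and SMAD4 was not called. Of 8 other inhibitors of the pathway, the edgeR interaction called the ubiquitin ligases SMURF1 with 0.56 (adjusted p = 0.010, but 0.709 with DESeq2) and SMURF2 with 0.76 (adjusted p = 0.000186).

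Among 13 tested genes that TGF-beta is known to induce or repress in other cells, the edgeR model of all arms called 0. An unadjusted p under 0.05 was reached by 5, and DESeq2 called 1. Over all genes these rules gave 1.61%, 26% and 7.48% in turn. The edgeR interaction called 8.37% of all genes as more positive in the HA arm and 3.81% as more negative. Of the 13, the interaction called 7 with the more positive effect in the HA arm, among them TGFBI, TAGLN, IGFBP3, CDKN1A, FN1 and LMCD1. It called 1 with the more negative effect, TIMP3, with a difference of -0.78 (adjusted p = 0.000293). IGFBP3, an insulin-like growth factor binding protein, had 708 CPM in HA FOSL1 against 198 CPM in HA control, and 332 CPM in gRNA2 and 300 CPM in gRNA3 against 216 CPM in VPR control. TAGLN, an actin-binding protein of smooth muscle, had 73.4 CPM in HA FOSL1 against 27.4 CPM in HA control, and 20.5 CPM in gRNA2 and 22.0 CPM in gRNA3 against 33.8 CPM in VPR control. The guides thus lay on the other side of their control from HA FOSL1 for TAGLN, with a log2 ratio of 1.39 for HA FOSL1, against -0.70 for gRNA2 and -0.60 for gRNA3. CDKN1A lay at 0.50 for HA FOSL1, against -0.33 for gRNA2 and -0.53 for gRNA3. FN1, a matrix protein, lay at 0.40 for HA FOSL1, against -0.34 for gRNA2 and -0.46 for gRNA3, and TIMP3 at -0.30, 0.59 and 0.41, so these genes too lay on opposite sides. Of the 7, TGFBI, CDKN1A, FN1 and LMCD1 were not called by DESeq2. CTGF, JUNB and BHLHE40, of the same list, were called by neither edgeR model.

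**Figure D5:**
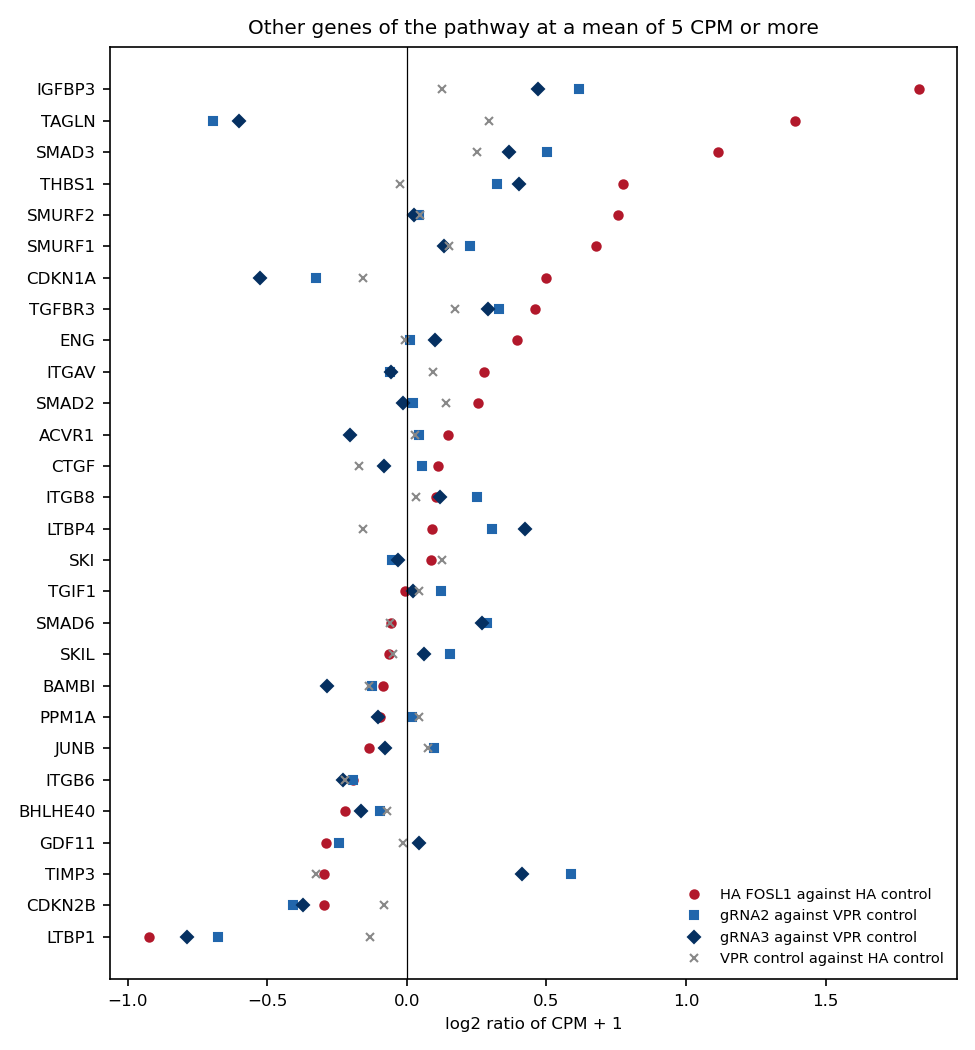
Log2 ratio of CPM + 1 (x axis) in the 3 arms and between the controls for the other pathway genes with a mean of at least 5 CPM, ordered by the ratio of HA FOSL1 to HA control. LTBP1 lies between -0.93 and -0.68 in all 3 arms, and TAGLN lies at 1.39 for HA FOSL1, at -0.70 for gRNA2 and at -0.60 for gRNA3.

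Among 5742 genes with a mean of at least 20 CPM, those nearest to each member were found by the Euclidean distance between their log2 levels, each centred on its mean over the 5 samples. Nearest to TGFB1 were PCDH19, DRAP1 and PDLIM1, at distances of 0.11, 0.21 and 0.33. Nearest to INHBA were CXCL8, MGLL and DCBLD2, at 0.55, 0.66 and 0.67, farther than for any other member searched. PMEPA1 lay nearest to ANXA2, MCU and CCDC50 and TGFB2 to SERTAD4, CD55 and PXDC1. INHBB lay nearest to HSDL2, TACC1 and TCF7 and LTBP3 to MAEA, SOD1 and WWP1. FST, TGFBR1, TGFBR2 and SMAD7 fell under the 20 CPM minimum and were not searched.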

How the data were processed

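The authors deposited a matrix of raw UMI counts per gene and barcode with 33538 genes and 3314631 barcodes, empty droplets included. It was made with Cell Ranger version 4, per the file headers, on build hg38, per the submitters' processing notes. The annotation version and the tool that read the hashtags are not given in the sources used here. The deposited assignment table gives each of 21228 called cells a probability per hashtag as a fraction between 0 and 1, per the file headers. Its hashtags named GOF were taken as the HA samples by elimination. The table assigned 15371 cells to 1 sample, and its 5181 multiplets, 402 unassigned cells and 274 blanks were left out. Doublets within 1 sample were not called.

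Cells with at least 1500 genes and at most 20% mitochondrial UMIs were kept, and counts were summed per sample. Levels are UMIs scaled to 1000000 per sample (CPM) with exact Poisson intervals. Ratios use log2(CPM + 1). Shares have exact binomial intervals after thinning to 5000 UMIs. Empty droplets were 48909 barcodes with 10 to 100 UMIs. Models were fitted over all genes with edgeR 4.0.16 (quasi-likelihood, Benjamini-Hochberg adjustment at 0.05), with DESeq2 1.42.0 as an alternative. The standard error was taken from the log2 change and the F statistic. Nothing in the labels says that the samples came from separate cultures of a group, so p-values reflect only how constructs and guides vary within this pool. Those of the interaction reflect only how the 2 guides vary. On simulated counts with a spread of 0.0495 (SD, log2), taken from the 2 controls, the model of all arms called 35 of 50 genes changed by 0.25. It called 50 of 50 changed by 0.5 among 15461 tested. The interaction called 4 of 50 changed by 0.25, 35 of 50 changed by 0.5 and 50 of 50 changed by 1 among 15876 tested. For the model of all arms every FOSL1 arm was given the same effect. These counts therefore do not show how often that model calls a gene whose effect differs between arms.

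The members and gene lists were chosen with earlier results of these data known. Beyond the 10 members, genes named were those of the lists, and the 3 nearest in pattern to each member. Alternatives were scaling, pseudocount, cell and gene filters, free RNA, the other system's control, the tool and each sample left out. There were 0 per-sample columns left unused. Promoter sequences are from RefSeq, and all 10 members matched by symbol.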

Additional observations from a re-analysis of the deposited data

Results flagged for a closer look

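For 5 of the 10 genes the FOSL1 effect differed between the HA arm and the guide arms in the edgeR interaction, each with the larger effect in the HA arm. Over all 16071 genes tested that interaction called 12.2%, 8.37% with the more positive effect in the HA arm and 3.81% with the more negative. On the log2 scale the difference was 1.81 for INHBA, 1.15 for TGFBR1, 0.63 for TGFB2, 0.52 for PMEPA1 and 0.41 for TGFBR2. The DESeq2 interaction did not call TGFBR2 (adjusted p = 0.999). The HA sample also had the most UMIs per cell and the guide samples the higher FOSL1 level, and their part in these differences was not tested. Construct, control and system change together between the arms and cannot be told apart. With 1 sample in each group, no group was large enough for a search for outlying samples.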

How the results depend on the processing

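No paired analysis was possible because each group holds 1 sample and the groups share no replicate beyond the number 1. Of 5 members past 1.5-fold in the HA arm, 3 had a mean of at least 20 CPM. The count was 6, with TGFB2 added at a log2 ratio between 0.60 and 0.62, under TMM scaling, 5% free RNA subtracted, the mean of per-cell CPM or thinned cells. With gRNA2 the count was 1, and 2 without the 10% of cells with the most UMIs, with the mean of per-cell CPM or with a pseudocount of 0.25, and 0 at a minimum of 20 CPM. With gRNA3 it was 2, and 1 at 20 CPM or with HA control as the control. Between the controls it was 1, and 0 at 20 CPM. FST with the guides reversed to -0.35 and -0.26 against HA control. Of the 30 thinned shares, 16 had an interval above their control's, and 25 did unthinned. Unthinned, the median cell of each FOSL1 arm held more UMIs than that of its control. The edgeR model of all arms called 2 members, against 5 with DESeq2, 7 without a filter on low counts and between 0 and 9 with 1 sample left out. It called 0 without gRNA2 and 0 without gRNA3, with 2614 and 2371 genes of the whole table at an unadjusted p under 0.05, where the other samples are assumed to vary alike. Its total of 248 genes was 1984 without the low-count filter, 1117 with DESeq2, 379 without the 10% of cells with the most UMIs, and 0 without either guide arm. It was 1804 without HA FOSL1, 2053 without HA control and 5937 without VPR control. The edgeR interaction called 5 members under every edgeR alternative run and 4 with DESeq2, with totals of 1958 and 450 genes. It could not be fitted with a sample left out, since no residual degrees of freedom remained. Leaving out the 10 cells with the most UMIs of each gene was chosen after seeing the data, and it left the direction of every called ratio in place. The cause of these changes was not tested. SMAD7 had 262 UMIs or fewer in a sample, which limits what its ratios can show.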
